A study of Homo sapiens with 2 samples.

Results

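The genes described here are ATF4, a transcription factor of the amino acid stress response, and 9 genes known as its targets or partners in stress signalling and serine metabolism: DDIT3, TRIB3, CHAC1, ASNS, PHGDH, PSAT1, PSPH, SHMT2 and MTHFD2. They were chosen by symbol, and all 10 were found among the 19607 genes of the expression table. Expression was measured by RNA sequencing in CWR22rv1, a human prostate cancer cell line that expresses the androgen receptor. One condition is control cells, labelled wild type, and the other is CWR22rv1/Akt1/2 DKO cells, in which Akt1 and Akt2 were knocked out with CRISPR/Cas9 and monoclonal cells were isolated after puromycin selection. Each condition was sequenced as 1 library, so no difference was checked in replicates, and the loss of Akt1/2 and the isolation of a clone cannot be told apart. The line was kept in RPMI medium with serum. Which clone was sequenced, whether the control cells went through selection and whether the sequenced cultures were starved or given androgen are not given in the sources used here.

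ATF4 is made mainly when the initiation factor eIF2 is phosphorylated on its alpha subunit, by kinases that sense amino acid shortage, unfolded proteins, haem lack or double-stranded RNA. General translation then slows while the ATF4 mRNA, whose leader holds upstream reading frames, is translated better, so the level of the mRNA alone does not give the level of the protein. ATF4 activates genes for amino acid synthesis, uptake and tRNA charging, and under lasting stress genes tied to cell death. Akt lies upstream of the kinase complex mTORC1, which is also known to raise ATF4 translation and, through it, the enzymes of serine synthesis and the mitochondrial folate cycle.

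ATF4 binds with C/EBP partners to an element whose core reads TGATGNAA. To show where this core lies near the genes, RefSeq promoter windows of build GRCh38.p14, from 250 bases before to 50 bases after each start site, were searched on both strands for TGATGNAA, for the FOXO core GTAAACA and for the E-box CACGTG, a site of MYC and USF factors. These 3 motifs do not overlap each other. Promoters were found for 8 of the 10 genes, as 13 windows, and PSPH and SHMT2 had no entry. TGATGNAA was found for 2 genes, ASNS and CHAC1, and in 3.62% of 35116 promoters of all genes. CACGTG was found for ATF4 and in 7.26% of all promoters, while GTAAACA was found for 0 of the 8 genes and in 3.42% of all promoters. The gene counts take a match in any window of a gene, while the percentages are of single windows, so they are not like for like. Below, 30 bases around each match are printed 5′ to 3′ on the strand of the gene, with the match in capitals.
ASNS: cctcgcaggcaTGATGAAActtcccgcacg
CHAC1: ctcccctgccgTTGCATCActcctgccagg
ATF4: ggaggagacggtCACGTGgtcgcggcggaa
The ASNS stretch is chr7:97872458-97872487 on the minus strand, with the match at positions -68 to -61 from the RefSeq start. The CHAC1 stretch is chr15:40953251-40953280 on the plus strand, where the match is on the opposite strand at positions -209 to -202. The ATF4 stretch is chr22:39520465-39520494 on the plus strand. In GENCODE release 29 all 3 stretches also fall within an exon of a transcript that starts further upstream, exon 1 for ASNS and CHAC1 and exon 2 for ATF4.

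In the Akt1/2 DKO library, 2 of the 3 genes of serine synthesis and 2 stress effectors were at least 1.5-fold higher, while ATF4 mRNA itself differed little. The higher ones were PHGDH (2.01-fold), PSPH (1.91-fold), TRIB3 (1.72-fold) and DDIT3 (1.64-fold), and 0 of the 10 genes were at least 1.5-fold lower. MTHFD2 lay just under this threshold at 1.498-fold. ASNS (1.39-fold), PSAT1 (1.33-fold), ATF4 (1.15-fold), SHMT2 (1.14-fold) and CHAC1 (0.993-fold) differed by less. Each fold divides Akt1/2 DKO by control after TMM normalization in edgeR. Its 95% interval is the exact Clopper-Pearson interval of how the reads split between the libraries, and reflects counting error alone. The control library held 9970820 estimated reads and the Akt1/2 DKO library 10718650, and a count of 3 reads, the floor used here, corresponds to 0.301 and 0.28 CPM (counts scaled to the library total).

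All 10 genes passed the filter on low counts, a sum of 10 reads over both libraries, as did 13318 genes in all. Of these, 15.9% were at least 1.5-fold higher and 15% at least 1.5-fold lower in Akt1/2 DKO (30.9% in either direction), beside 4 and 0 of the 10 genes. Among the 10956 genes whose reads summed to 100 or more, as those of each of the 10 did, 11.3% were at least 1.5-fold higher. The median log2 fold change of the 10 genes was 0.53, beside 0.01 over all genes tested, and 9 of the 10 were above 0, beside 50.7% of all genes. The whole counting interval lay above no change for 9 of the 10 genes, with CHAC1 as the exception, and for 29.8% of all genes. It lay above 1.5-fold for PHGDH, TRIB3 and PSPH, and for 8.69% of all genes. Counting intervals narrow as reads rise, and these 2 shares include genes with a sum of only 10 reads. They are thus not matched to the 10 genes in depth. With FPKM in place of normalized reads, ASNS and MTHFD2 also passed 1.5-fold, which made 6 genes, beside 16.7% of all genes. The count was 5, with MTHFD2 added, under scaling by total counts (beside 17% of all genes) or by the upper quartile (17.2%). It was also 5 with at least 10 reads required in each library (12.2%). The median log2 fold change of all genes was 0.05 with total counts, 0.06 with the upper quartile and 0.03 in FPKM. A 2-fold threshold left PHGDH alone, and 10% of all genes were at least 2-fold higher.

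**Figure D1:**
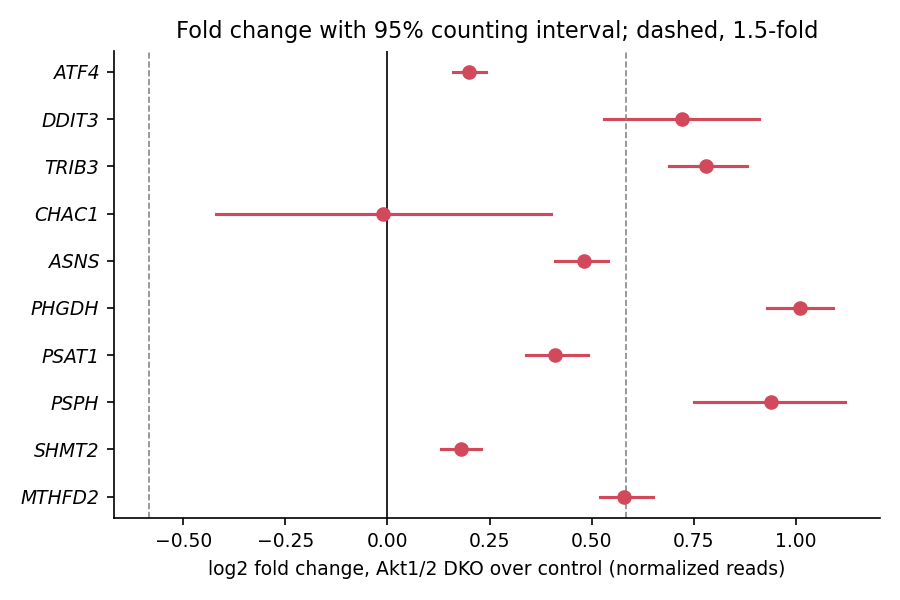
Log2 fold change of each gene, Akt1/2 DKO over control, in TMM-normalized reads (points), with the exact 95% counting interval (lines), no change (solid line) and 1.5-fold (dashed lines). PHGDH, at 1.01, and PSPH, at 0.94, are farthest right, MTHFD2 sits on the dashed line at 0.58, and CHAC1, at -0.01, spans 0.

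ATF4 (ENSG00000128272, chromosome 22 from 39519695 to 39522685, GENCODE release 29, GRCh38) had 7815 reads in control and 9944 in Akt1/2 DKO. Its fold of 1.15 had an interval from 1.11 to 1.18, which lies far below 1.5-fold. DDIT3, which encodes CHOP, a C/EBP partner of ATF4 linked to death of stressed cells, had 359 and 654 reads, 1.64-fold higher (95% interval 1.44 to 1.87). It lies on chromosome 12 from 57516588 to 57521737. TRIB3, a pseudokinase known to bind Akt and to restrain ATF4 and CHOP, had 1271 and 2428 reads, 1.72-fold higher (95% interval 1.61 to 1.85), and lies on chromosome 20 from 362835 to 397559. In these libraries both targets therefore stood further from no change than ATF4 mRNA, and their counting intervals did not reach that of ATF4. CHAC1, an enzyme that cleaves glutathione and a known target of ATF4, had only 99 and 109 reads. Its interval, from 0.75 to 1.32, holds no change and leaves 1.5-fold in either direction outside, and its few reads cannot resolve a smaller difference. CHAC1 lies on chromosome 15 from 40952962 to 40956519.

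The relatives of these genes differed in direction. CHAC2, the paralog of CHAC1, had 26 and 53 reads (1.84-fold, 95% interval 1.13 to 3.06), and TRIB1 had 488 and 549 (1.01-fold, 0.897 to 1.15), while TRIB2 had 0 and 1 reads and was not tested. ATF3, a stress-induced factor of the same family that lies downstream of ATF4, had 143 and 586 reads and was 3.70-fold higher (95% interval 3.07 to 4.47). ATF5, a relative of ATF4 that is likewise controlled in translation and is tied to mitochondrial stress, went the other way, with 521 and 111 reads, 5.20-fold lower. Of the C/EBP partners, CEBPB had 434 and 832 reads (1.73-fold, 1.54 to 1.95) and CEBPG 1095 and 1436 (1.18-fold, 1.09 to 1.28).

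Serine is made from a glycolytic intermediate in 3 steps, and the genes of all 3 had more reads in the Akt1/2 DKO library. PHGDH, the dehydrogenase of the first step (ENSG00000092621, chromosome 1 from 119648411 to 119744226), had 1783 reads in control and 3981 in Akt1/2 DKO, 2.01-fold higher (95% interval 1.90 to 2.13). PSAT1, the aminotransferase of the next step (chromosome 9 from 78297143 to 78330093), had 2546 and 3762 reads, 1.33-fold (1.27 to 1.40). PSPH, the phosphatase that releases serine (chromosome 7 from 56011051 to 56051604), had 357 and 757 reads, 1.91-fold higher (1.68 to 2.18). In these libraries the outer steps thus differed more than the middle step, and the counting intervals of PHGDH and PSPH did not overlap that of PSAT1. Variation between cultures is not part of these intervals, so the order of the steps was not tested. PHGDH stood at position 1326 and PSPH at position 1403 from the highest fold among the 13318 genes tested, so neither is among the largest differences of these libraries.

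Per length, the order of PHGDH and PSAT1 differed between the libraries. Levels in FPKM, which correct the fragments of a gene for its length and for sequencing depth, were 92.8 in control and 193 in Akt1/2 DKO for PHGDH, and 117 and 163 for PSAT1. The ratio of the FPKM of PHGDH to that of PSAT1 was 0.791 in control and 1.18 in Akt1/2 DKO. PSPH was the lowest of the pathway, at 28.1 and 54.5 FPKM, and PSAT1 stood 4.17 times above it in control and 3 times in Akt1/2 DKO.

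Serine gives its carbon to folate in the mitochondrion through SHMT2 and MTHFD2, and in the cytosol through SHMT1 and MTHFD1. SHMT2 (ENSG00000182199, chromosome 12 from 57229327 to 57234935) had 5863 reads in control and 7381 in Akt1/2 DKO, 1.14-fold (95% interval 1.10 to 1.18). MTHFD2 (ENSG00000065911, chromosome 2 from 74198562 to 74217565), a dehydrogenase and cyclohydrolase high in embryonic and tumour cells, had 3068 and 5095 reads, with an interval from 1.43 to 1.57. The counting interval of MTHFD2 lies wholly above that of SHMT2 in these libraries, although the enzymes act in sequence. The cytosolic counterparts SHMT1 (876 and 1084 reads, 1.12-fold, 1.02 to 1.22) and MTHFD1 (2485 and 3103, 1.13-fold, 1.07 to 1.19) had folds close to that of SHMT2. MTHFD1L, which releases mitochondrial formate, had 449 and 668 reads (1.34-fold, 1.19 to 1.52). MTHFD2L, the paralog of MTHFD2 in adult tissue, had 41 and 59 (1.30-fold, 0.857 to 1.98).

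In FPKM, SHMT2 stood above its cytosolic counterpart SHMT1, and MTHFD2 above its paralog MTHFD2L, in both libraries. SHMT2 stood 9.95 times above SHMT1 in control and 9.32 times in Akt1/2 DKO, and MTHFD2 23.2 and 28.2 times above MTHFD2L. MTHFD2 was below MTHFD1 in control, with a ratio of FPKM of 0.852, and above it in Akt1/2 DKO, with a ratio of 1.10.

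ASNS, which makes asparagine and is a textbook target of ATF4 through the element printed above (ENSG00000070669, chromosome 7 from 97852118 to 97872542), had 2926 reads in control and 4514 in Akt1/2 DKO. Its fold was 1.39 (95% interval 1.33 to 1.46), and 1.5-fold lies just outside this interval. ASNS and CHAC1, the genes with a TGATGNAA core in the window searched, had log2 fold changes of 0.48 and -0.01. The 6 genes without one there lay on both sides of ASNS, with PHGDH at 1.01, TRIB3 at 0.78, DDIT3 at 0.72, MTHFD2 at 0.58, PSAT1 at 0.41 and ATF4 at 0.20.

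Nearly all these genes were well expressed. ATF4 had the highest level in both libraries, 543 FPKM in control and 641 in Akt1/2 DKO, and SHMT2 came next with 402 and 470. ASNS followed with 152 and 228 FPKM, above the serine synthesis genes PHGDH and PSAT1. MTHFD2 had 80.7 and 124 FPKM, TRIB3 54.0 and 91.9, DDIT3 39.2 and 66.5, and CHAC1 was last with 6.32 and 6.50. The median of all genes tested was 10.8 FPKM in control and 11 in Akt1/2 DKO, so CHAC1 alone lay under it. With 1 library per condition, no spread shows which neighbours in this order differ. Together the 10 genes held 0.262% of all reads in control and 0.36% in Akt1/2 DKO.

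**Figure D2:**
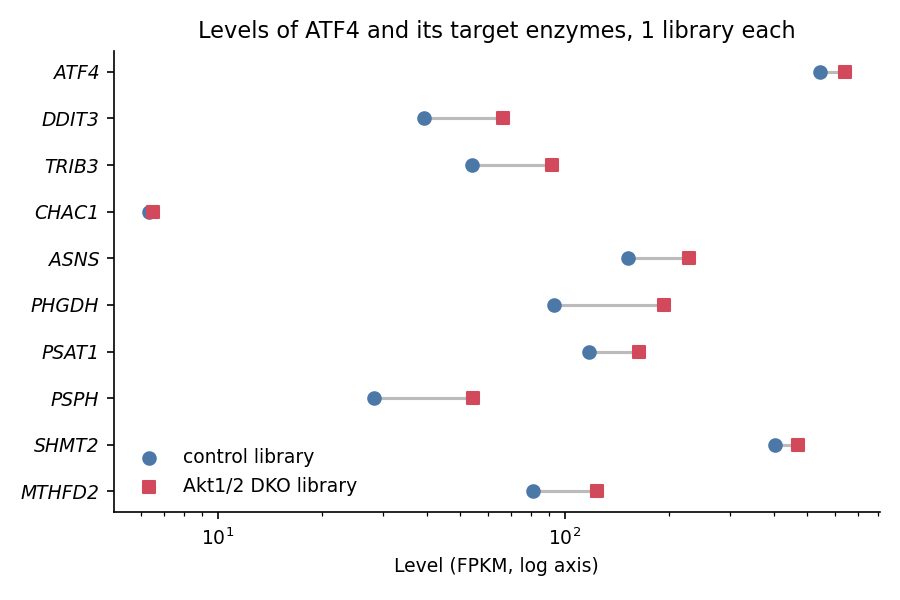
Level of each gene in FPKM (log axis) in the control library (circles) and the Akt1/2 DKO library (squares), 1 library each. ATF4 and SHMT2 are highest in both, PHGDH passes PSAT1 in Akt1/2 DKO (193 against 163), and the symbols of CHAC1 nearly coincide at 6.32 and 6.50.

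Other known targets of ATF4 were more often above no change than below it, 29 against 9, beside 50.7% of all genes above it. Of 40 such genes, 38 had enough reads, of which 8 were at least 1.5-fold higher (21.1%, beside 15.9% of all genes) and 2 lower (5.26%, beside 15%), with a median log2 fold change of 0.33. Besides ATF3, the largest differences upward were those of STC2, a secreted stress glycoprotein (317 and 744 reads, 2.12-fold, 95% interval 1.85 to 2.42), and SLC7A5, the light chain of a transporter of large neutral amino acids (2129 and 4786, 2.03-fold, 1.93 to 2.13). PPP1R15A, which brings a phosphatase to eIF2 alpha and so ends the response, had 341 and 745 reads (1.97-fold, 1.73 to 2.25). The genes at least 1.5-fold lower were ATF5 and JDP2, a repressor of the AP-1 family, with 81 and 26 reads (3.45-fold lower, 2.20 to 5.60). The 5 aminoacyl-tRNA synthetase genes in this list had log2 fold changes from -0.09 for WARS and -0.08 for CARS, through 0.27 for AARS and 0.31 for GARS, to 0.44 for SARS, and 0 of them passed 1.5-fold.

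The remaining genes of serine, glycine and folate metabolism lay around no change. Of 33 tested among 37, 4 were at least 1.5-fold higher and 4 lower (12.1% each, beside 15.9% and 15% of all genes), with a median log2 fold change of 0.08. Among those with a sum of at least 100 reads, SLC19A1, the reduced folate carrier, had 418 and 703 reads (1.52-fold, 95% interval 1.34 to 1.72), and GLDC, the glycine decarboxylase, had 32 and 88 (2.48-fold, 1.64 to 3.84). AMT, which acts beside GLDC in the glycine cleavage system, had 85 and 29 reads (3.25-fold lower), and DHFR2, a paralog of dihydrofolate reductase that can share its reads, had 192 and 91 (2.34-fold lower). The other members past 1.5-fold, named after their values were seen, had fewer reads, GNMT 8 and 14, DMGDH 10 and 58, SARDH 55 and 8, and ALDH1L1 15 and 2. The counts of these lists are thus small, and a single gene with few reads can move them.

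The kinases that start the response had folds between 0.926 and 1.22. EIF2AK1, the haem-sensing kinase, had 2743 and 2932 reads (0.964-fold, 95% interval 0.915 to 1.02), EIF2AK2, activated by double-stranded RNA, 519 and 661 (1.15-fold, 1.02 to 1.29), EIF2AK3, or PERK, 155 and 210 (1.22-fold, 0.988 to 1.51), and EIF2AK4, or GCN2, 1015 and 1042 (0.926-fold, 0.848 to 1.01). Kinase activity was not measured. In the list of 18 genes that holds them, 2 were at least 1.5-fold higher and 2 lower (11.1% each, beside 15.9% and 15% of all genes), with a median log2 fold change of 0.03. The higher ones were PPP1R15A and PPP1R15B (761 and 1852 reads, 2.20-fold, 2.02 to 2.39), the regulatory subunits that direct dephosphorylation of eIF2 alpha. The lower ones were OMA1, a mitochondrial protease that relays stress to the kinase EIF2AK1 (231 and 151 reads, 1.70-fold lower), and IMPACT, an inhibitor of GCN2 (520 and 361 reads, 1.60-fold lower). In FPKM the log2 fold change of OMA1 was -0.13, so its call rests on the reads.

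The ATF6 and XBP1 branches of the unfolded protein response, which induce chaperones of the endoplasmic reticulum, showed no common direction. Of 20 genes, 10 were above and 10 below no change, 2 were at least 1.5-fold higher (10%, beside 15.9% of all genes) and 0 lower (beside 15%), and the median log2 fold change was -0.02. The higher ones were XBP1 (958 and 2010 reads, 1.89-fold, 95% interval 1.75 to 2.05) and its target DNAJB9 (121 and 221, 1.65-fold, 1.31 to 2.07). All log2 fold changes in this list lay between -0.58 and 0.92.

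**Figure D3:**
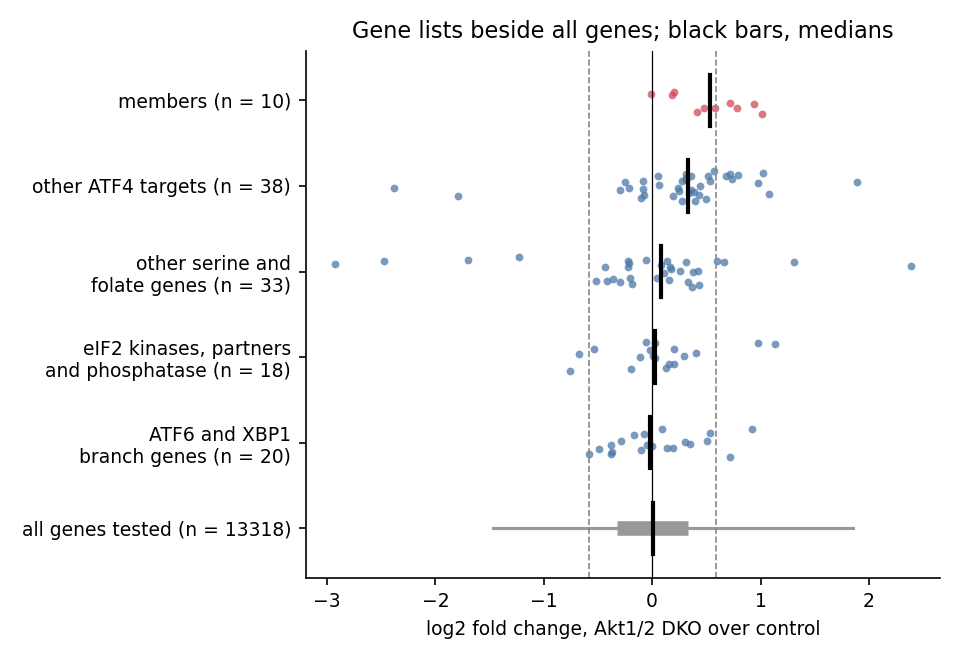
Log2 fold change, Akt1/2 DKO over control, of each tested gene (points) in the 10 genes (members) and in 4 related lists, with medians (black bars), 1.5-fold (dashed lines) and, for all 13318 genes tested, the central 50% (thick bar, -0.32 to 0.33) and 90% (thin line, -1.47 to 1.85). The medians are 0.53, 0.33, 0.08, 0.03, -0.02 and 0.01 from top to bottom.

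The neighbouring genes on the chromosomes lay near no change in the median. For each gene, the 10 nearest tested genes on each side were taken from GENCODE release 29, 195 places in all since TRIB3 lies near a chromosome end. Their medians of log2 fold change lay between -0.06 around PHGDH and 0.18 around PSAT1. Each of the 10 genes was above the median of its own neighbours, CHAC1 only at -0.01 beside -0.04. The share of all genes that stand above such a median was not computed. PHGDH was above all 20 of its neighbours, whose highest value was 0.29, and TRIB3 was above 14 of 15. MTHFD2 was above 18 of 20, and DDIT3 and PSPH each above 17 of 20. ASNS was above 15 of 20, and ATF4, PSAT1, SHMT2 and CHAC1 were each above 13 of 20. The stretches that these neighbours cover differ widely in length. That around PHGDH runs from 116910057 to 145095528, that around PSPH from 51016212 to 64833681 and that around DDIT3 from 57088894 to 57742157. The neighbours are thus not equally near to every gene. DDIT3 and SHMT2 lie 282 kb apart on chromosome 12 and differed by 1.64-fold and 1.14-fold. The medians of the chromosomes that carry the genes lay between -0.06 and 0.10.

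**Figure D4:**
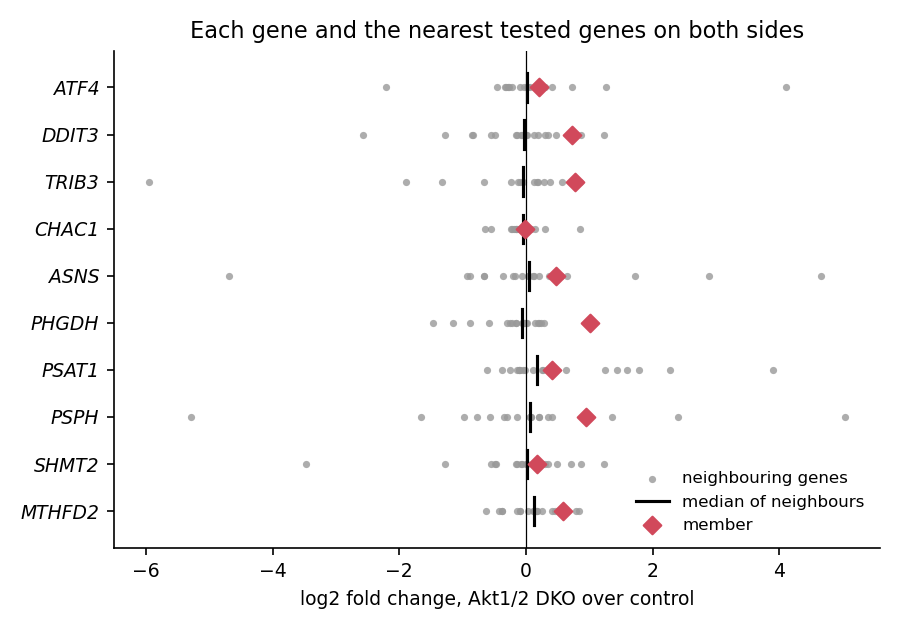
Log2 fold change, Akt1/2 DKO over control, of each gene (diamonds), of its 20 nearest tested neighbours (15 for TRIB3, grey points) and the median of those neighbours (black bars). PHGDH, at 1.01, lies right of every neighbour, while CHAC1, at -0.01, and the remaining genes lie among theirs.

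The targeted genes check the labels: AKT1 had 2645 and 591 reads and AKT2 2362 and 667 in control and Akt1/2 DKO. Of 8 markers of prostate epithelium, 0 were at 0 in either library, and together they had 2196 CPM in control and 3652 in Akt1/2 DKO, although KLK3 (184 and 29 reads) and HOXB13 (2363 and 865) had fewer in Akt1/2 DKO. The 7 fibroblast markers had 104 and 22.4 CPM, of which VIM alone had 90 and 7.84 (897 and 84 reads). COL3A1 had 74 and 9 reads, while COL1A1 (55 and 106) and LUM (5 and 35) had more in Akt1/2 DKO. COL1A2, SPARC and DCN had 3 reads or fewer in each library, so the sum in control mostly gives VIM. The 5 immune markers had 5.62 and 7.46, with CD3E at 0 in both libraries, and the 4 endothelial markers 0.201 and 0.187, with CDH5 at 0 in both. The part of these differences in the results above was not tested.

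Some reads could have been assigned to more than 1 gene. GENCODE release 29 lists 20 pseudogenes named after these genes, 7 for MTHFD2, 4 each for ATF4, ASNS and PSAT1 and 1 for PSPH, and the expression table lists 0 of them. In the control library, MTHFD2 was the 1 gene of the 10 whose estimated reads were not whole (3067.89). Its estimate in the DKO library was 5094.69, and the other genes were not checked in that library. DDIT3 overlaps MARS and MBD6 on the opposite strand. MARS had 2991 and 3309 reads (0.998-fold, 95% interval 0.949 to 1.05) and MBD6 417 and 469 (1.01-fold, 0.887 to 1.16). Also on the opposite strand, SHMT2 overlaps NDUFA4L2 (99 and 135 reads, 1.23-fold, 0.942 to 1.61). MTHFD2 likewise overlaps SLC4A5 (13 and 21 reads, 1.46-fold, 0.696 to 3.17). Whether the libraries keep strand is not given in the sources used here, so reads in these overlaps cannot be told apart. Further overlapping genes are absent from the expression table. On the same strand these are AC022506.1 and MIR616 for DDIT3 and AC079781.5 for ASNS, which strand could not separate. On the opposite strand they are the pseudogene AC005326.1 for ASNS, AC137834.2 for SHMT2 and AC006030.1 for MTHFD2.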

How the data were processed

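RNA from 1 library of Akt1/2 DKO and 1 library of control CWR22rv1 cells was analysed. The deposited table gives each gene an estimated count, which the authors did not normalize, and an FPKM value. The submitters' processing notes name fastp 0.20.0, TopHat, Cufflinks, edgeR and GRCh38.p10, without roles. Deposited tables of the authors' own fold changes, p-values and gene classes were not used.

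Estimated counts were rounded. Genes with a sum of at least 10 reads were tested. TMM factors (edgeR 4.0.16, R 4.3.3) made the effective Akt1/2 DKO library 1.11 times the control library. Reads below 3 were set to 3. Intervals are exact at 95% (scipy 1.17.1, Python 3.11.15). Without replicates, no test across genes was made. Positions came from GENCODE release 29, which held 19571 of the 19607 identifiers. Only the fold and interval steps were tried on simulated data, with counting error alone and the library ratio given. That trial cannot show how normalization or variation between cultures affects the folds.

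The genes and lists were chosen with earlier results of these data known. Named are the 10 genes, AKT1, AKT2, listed relatives, the eIF2 alpha kinases, marker genes, and from each list up to 4 genes per direction with the largest change among those past 1.5-fold with at least 100 reads together. Genes outside this rule, such as GNMT, MARS and the tRNA synthetases, were named after their values were seen. No genes are named for likeness of pattern, since 2 libraries give 1 ratio per gene. The alternatives were total count, DESeq2 1.42.0 and upper-quartile scaling, FPKM with a pseudocount of 0.1, a prior count of 1, other read filters, a 2-fold threshold and a shorter promoter window.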

Additional observations from a re-analysis of the deposited data

How the results depend on the processing

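Under the 5 other scalings, FPKM and prior count included, 46 of 50 log2 fold changes of the 10 genes stayed within their counting interval. The exceptions were ATF4 (0.24 with total counts, 0.25 with the upper quartile), ASNS (0.59 in FPKM) and SHMT2 (0.24 with the upper quartile). The median of the 10 genes was 0.60 in FPKM, beside 0.53. CHAC1 ranged from -0.01 to 0.04, with its sign set by the scaling.

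A 2-fold threshold left 1 of the 10 genes, 3 other ATF4 targets higher, 2 serine and folate genes higher, 1 eIF2 gene higher and 0 lower, and 0 ATF6 and XBP1 branch genes higher, with 1333 genes of all higher and 1058 lower. With DESeq2 size factors 1 ATF6 and XBP1 branch gene was lower, and in FPKM 1 eIF2 gene was lower. At least 10 reads in each library added MTHFD2 to the genes past 1.5-fold, 5 of 10, beside 12.2% of all genes. This filter left 2 serine and folate genes lower, and in the KEGG glycine, serine and threonine list 2 higher and 3 lower. At least 50 reads in the 2 libraries together left 2 higher in that KEGG list. At least 100 reads, chosen after seeing the data, left 2 serine and folate genes higher and 2 lower, 1 higher in that KEGG list, and 1238 genes of all higher and 1308 lower, since stricter filters test fewer genes. The promoter window without the bases after the start site gave the same number of genes for each motif. No replicate could be left out. No paired analysis was possible because only 1 library per condition was sequenced. Of the 10 genes, depth limits CHAC1, with 99 and 109 reads, and among the others named it limits those with few reads, such as GNMT, ALDH1L1, MTHFD2L and CHAC2.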

Other observations

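The KEGG annotation in the deposited table gives a wider view of serine and glycine use. Its lists share genes with those above, such as GLDC and AMT. In glycine, serine and threonine metabolism, without the 10 genes described above, 27 of 36 genes were tested, and 5 were at least 1.5-fold higher and 5 lower in Akt1/2 DKO (18.5% each, beside 15.9% and 15% of all genes), with a median log2 fold change of 0.07. The lowest was MAOA, a mitochondrial amine oxidase, with 1028 reads in control and 7 in Akt1/2 DKO (163-fold lower, 95% counting interval of the fold 78.7 to 406). CHDH, which starts the oxidation of choline to betaine, had 1187 and 588 reads (2.24-fold lower), and ALDH7A1, an aldehyde dehydrogenase that also acts on betaine aldehyde, had 795 and 521 (1.69-fold lower). SARDH had 55 and 8 reads and DMGDH 10 and 58, although both demethylate glycine derivatives downstream of betaine. CBSL, a near-identical copy of CBS that can share its reads, had 0 and 17, while CBS had 1614 and 1662.

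In the KEGG one carbon pool by folate, 17 of 18 further genes were tested, and 0 were at least 1.5-fold higher (beside 15.9% of all genes) and 3 lower (AMT, DHFR2 and ALDH1L1, 17.6%, beside 15%), with a median log2 fold change of 0.17. ALDH1L2, the mitochondrial form of the ALDH1L1 enzyme and a known ATF4 target, had 1783 and 2577 reads, a log2 fold change of 0.38, while ALDH1L1 had 15 and 2.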
